A study of Homo sapiens with 6 samples.

Results

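YAP1 and WWTR1 (the gene of TAZ), the 4 TEAD transcription factors TEAD1, TEAD2, TEAD3 and TEAD4, and the YAP and TAZ target genes CCN1, CCN2, AMOTL2 and LATS2 were followed in OVCAR5 cells given the DNA hypomethylating agent NTX301. These 10 genes were chosen by name, with earlier results of these data known, from 62656 genes in the deposited tables. All 10 passed the filter on low counts, as did 19029 genes in all. OVCAR5 is an established line of human ovarian cancer cells, grown in RPMI-1640 medium with fetal bovine serum. One group of 3 libraries came from cells given 100 nM NTX301 and the other group of 3 from cells given DMSO, the solvent, both for 3 days. RNA was measured by sequencing of total RNA libraries in a single line at a single dose and time. No label states that replicates were grown as separate cultures, and p-values here reflect only the spread among the sequenced libraries, which may be technical.

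YAP and TAZ are coactivators without a DNA-binding domain of their own. They reach DNA through TEAD factors and switch on genes such as CCN1 and CCN2, which encode secreted matricellular proteins. Of the Hippo kinases, MST activates LATS, which phosphorylates YAP and TAZ and so keeps them out of the nucleus. AMOTL2 and LATS2 are targets that hold YAP and TAZ back, which closes a negative feedback loop. This control acts mostly on phosphorylation and location of the proteins. The levels of YAP1 and WWTR1 mRNA thus say nothing of YAP or TAZ activity by themselves. Target mRNA is used as a readout of this activity, but the activity itself was not measured here.

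With NTX301, CCN2 rose 1.95-fold and TEAD4 rose 1.65-fold, LATS2 rose 1.22-fold and YAP1 rose 1.13-fold, while WWTR1 fell to 0.708 of its DMSO level. These 5 calls and their directions were kept in all 14 alternative analyses. CCN1, TEAD1 and TEAD2 also fell by the main test, but these calls were lost, and that of TEAD1 turned into a rise, without a scaling factor. TEAD3 and AMOTL2 did not pass the threshold by the main test. In all, 4 of the 10 genes rose and 4 fell (edgeR's quasi-likelihood test at an adjusted p under 0.05, by the method of Benjamini and Hochberg across every tested gene), beside 35.4% of all tested genes that rose and 35.1% that fell. The falls numbered 2 without NTX301 replicate 1 or without NTX301 replicate 2, and without a scaling factor there were 7 rises and 1 fall. The share of the 10 genes called in either direction is thus near the 70.5% of all tested genes called. Their median log2 fold change was -0.01 (0.20 without a scaling factor), next to -0.0005 over all tested genes.

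The libraries held 22131175 to 25743732 estimated counts each, and the treatments were separated by the first principal component, with DMSO replicate 3 apart from the other DMSO libraries on the second. Dropping the scaling factor moved the median log2 fold change over the tested genes to 0.21, and rises then made up 65.01% of calls, against 50.25% with TMM scaling. Unless another scale is named, a fold change here is one against the median gene. Among markers of the line, EPCAM and the keratins KRT8, KRT18 and KRT19 were abundant, whereas WT1 and MUC16, markers of serous ovarian carcinoma, were at most 0.17 TPM in any library. MUC16 is long, at 43816 bases, and had 68, 79 and 93 counts with DMSO and 14, 25 and 15 with NTX301. Its log2 fold change was -2.31 ± 0.26 (edgeR adjusted p = 7e-06). The epithelial markers fell in 5 of 6 tested genes (7 listed), from summed levels of 4259 to 4431 TPM with DMSO to 2352 to 2436 TPM with NTX301. The tested gene that did not fall was PAX8, at 5.883 TPM with DMSO and 9.127 TPM with NTX301 on average. Its groups did not overlap, but its log2 fold change of 0.217 was not past the threshold (edgeR adjusted p = 0.094). The 7 fibroblast markers summed to 5.15 to 5.8 TPM with DMSO and 20.85 to 21.62 TPM with NTX301, most of it COL1A1; 3 of 4 tested rose and 1 fell, while the fibroblast markers DCN, COL1A2 and THY1 were at or near 0. The 4 immune markers summed to 16.02 to 17.7 and 27.38 to 28.04 TPM, nearly all of it CD14, which rose and was the 1 gene of them tested, with PTPRC, which marks all leukocytes, at or near 0. The 3 endothelial markers summed to 1.47 to 1.63 TPM with DMSO and 2.09 to 2.35 TPM with NTX301, and 2 of the 3, CDH5 and VWF, rose. The part of these markers in the results below was not tested, and in bulk RNA fewer cells of a type and less RNA per cell cannot be told apart.

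**Figure D1:**
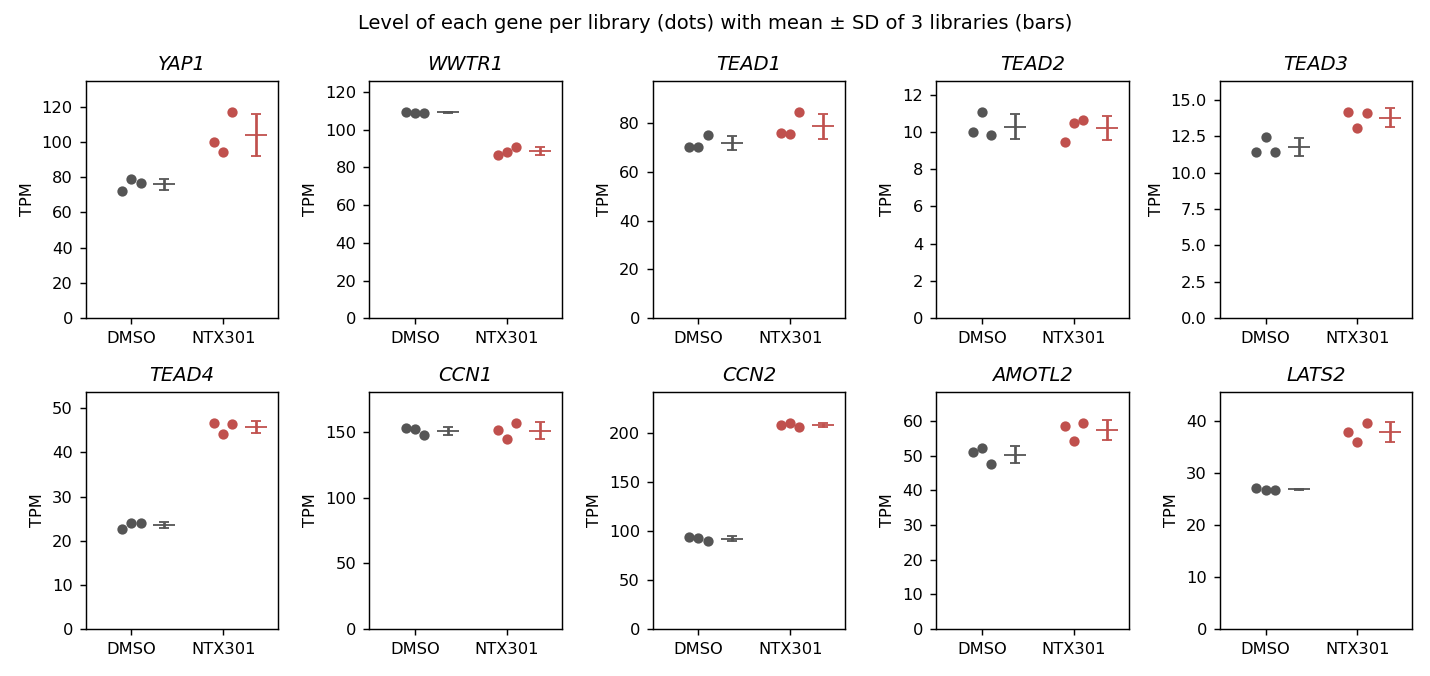
Level of each gene in TPM (y axis, from 0) for the 3 DMSO and 3 NTX301 libraries; dots are libraries and the cross bars give mean ± SD of 3 libraries. The groups stand apart in 8 of the 10 genes on this scale, near the 72% of all tested genes, and overlap in TEAD2 and CCN1.

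YAP1 (ENSG00000137693.14, chromosome 11, 102110461 to 102233423 on the plus strand of GRCh38) encodes the coactivator YAP. Its levels were 207.7, 209.0 and 219.1 CPM (counts relative to the scaled library size) in DMSO replicates 1, 2 and 3, and 240.7, 226.6 and 250.1 CPM in NTX301 replicates 1, 2 and 3. All NTX301 libraries lay above all DMSO libraries, by a narrow margin between the highest DMSO and the lowest NTX301 library. The log2 fold change was 0.17 ± 0.04 (estimate ± SE) with an edgeR adjusted p of 0.0041. In TPM, a unit that accounts for transcript length, YAP1 went from 75.98 ± 3.23 to 103.8 ± 11.9 (mean ± SD, n = 3 each), and on log2(TPM + 1) its change was 0.44, against 0.38 for counts without a scaling factor. The deposited mean transcript length, weighted by the estimated share of each of the 8 YAP1 transcripts, was 4445 to 4873 bases in DMSO libraries and 4267 to 4576 bases in NTX301 libraries, with overlapping ranges. An antisense gene, AP000942.2, lies within YAP1 on the other strand and had 22, 42 and 0 counts with DMSO and 51, 122 and 39 with NTX301 (log2 1.59 ± 0.64, edgeR adjusted p = 0.043). These counts are small beside those of YAP1, which had 4547 to 5017 counts with DMSO and 5759 to 6432 with NTX301.

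WWTR1 (ENSG00000018408.15, chromosome 3, 149517235 to 149736714 on the minus strand), which encodes TAZ, moved the other way. Its levels were 313.9, 306.3 and 316.6 CPM with DMSO and 217.6, 229.2 and 216.3 CPM with NTX301. The groups are far apart relative to their spread. The log2 fold change was -0.50 ± 0.04 (edgeR adjusted p = 2.8e-07), and it ranged from -0.53 to -0.29 over the alternatives. WWTR1-AS1, an antisense gene that lies within it, had 29 to 46 counts in a library and a log2 fold change of -0.43 ± 0.21 that was not past the threshold (edgeR adjusted p = 0.086).

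In CPM, WWTR1 was above YAP1 in each DMSO library and also in NTX301 replicate 2 (229.2 against 226.6). In TPM, which accounts for transcript length, the order of both coactivator genes was exchanged between the treatments. WWTR1 transcripts stood at 1.51, 1.383 and 1.421 times those of YAP1 in the DMSO libraries and at 0.8645, 0.9353 and 0.7775 times in the NTX301 libraries. The log2 ratio of TPM within a library, which does not depend on scaling between libraries, went from 0.52 ± 0.07 to -0.22 ± 0.13 (mean ± SD, n = 3 each, exact two-sided permutation p = 0.10, adjusted over 5 ratios 0.10, the smallest p that 3 against 3 libraries allow). The sum of both was 181.8, 187.6 and 185.9 TPM with DMSO and 186.9, 182.1 and 207.9 TPM with NTX301, and these ranges overlap. This sum is in TPM, which carries no TMM scaling. In CPM, WWTR1 averaged 312.3 with DMSO and 221.1 with NTX301, a larger drop than the rise of YAP1 from 212 to 239.1. Whether the summed level changed thus depends on the scale.

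The genes whose pattern over the 6 libraries was most like that of YAP1, among 10499 genes averaging at least 10 CPM, were KIDINS220, GPATCH2L and PER2 (Pearson r of log2 CPM of 0.9943, 0.9924 and 0.9921). For WWTR1 they were SGMS2, MANEA and PKP3 (0.9999, 0.9996 and 0.9994). These values describe 6 libraries in 2 groups, and 3216 genes reached an r of 0.95 with WWTR1 and 126 with YAP1.

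Among the TEAD factors, TEAD4 (ENSG00000197905.10, chromosome 12, 2959330 to 3040673 on the plus strand) had the largest log2 fold change. Its levels were 22.92, 23.66 and 22.89 CPM with DMSO and 39.92, 37.26 and 37.57 CPM with NTX301. The lowest NTX301 library was well above the highest DMSO library. The log2 fold change was 0.72 ± 0.05 (edgeR adjusted p = 1.2e-07), higher than that of 81.1% of all tested genes. In TPM it went from 23.55 ± 0.728 to 45.79 ± 1.35 (n = 3 each). The mean length of its transcripts was 1684 to 1696 bases with DMSO and 1644 to 1675 bases with NTX301, ranges that do not overlap.

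TEAD1 (ENSG00000187079.20, chromosome 11, 12674591 to 12944483 on the plus strand) was the most abundant TEAD in both groups. Its levels were 395.1, 380.7 and 399.6 CPM with DMSO and 357.8, 357.3 and 381.7 CPM with NTX301. The groups overlap, since NTX301 replicate 3 lay above DMSO replicate 2. The log2 fold change was -0.10 ± 0.04 (edgeR adjusted p = 0.048), but without a scaling factor it was 0.11 (edgeR adjusted p = 0.041), so its direction depends on the scale. The call was also absent without DMSO replicate 1 (log2 -0.10, adjusted p = 0.079), NTX301 replicate 1 (-0.088, 0.15) or NTX301 replicate 2 (-0.084, 0.14) by edgeR.

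TEAD2 (ENSG00000074219.14, chromosome 19, 49340595 to 49362457 on the minus strand) had 12.97, 14.12 and 12.38 CPM with DMSO and 10.68, 11.65 and 11.71 CPM with NTX301. The groups do not overlap on this scale but do so in TPM, where the means were 10.29 ± 0.682 and 10.20 ± 0.639 (n = 3 each). Its log2 fold change of -0.22 ± 0.08 (edgeR adjusted p = 0.034) was -0.0087 without a scaling factor, and the call was absent without DMSO replicate 2 (edgeR adjusted p = 0.12), NTX301 replicate 1 (0.11) or NTX301 replicate 2 (0.053) and in DESeq2 (adjusted p = 0.16). CD37, which overlaps TEAD2 on the other strand, had 12 to 23 counts in a library (log2 -0.71 ± 0.27, edgeR adjusted p = 0.033), against 257 to 339 for TEAD2.

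TEAD3 (ENSG00000007866.22, chromosome 6, 35473597 to 35497076 on the minus strand) had 20.46, 22.04 and 19.76 CPM with DMSO and 21.37, 20.38 and 20.96 CPM with NTX301. The libraries of both groups are interleaved. The log2 fold change was 0.01 with a 95% interval of -0.12 to 0.14, which leaves room for a small change in either direction, and without a scaling factor it was 0.22 (edgeR adjusted p = 0.0077).

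TEAD4 made up a larger part of the TEAD transcripts with NTX301. In TPM, TEAD4 made up 19.84%, 20.40% and 19.90% of the summed TEAD level in the DMSO libraries and 31.99%, 30.87% and 29.78% in the NTX301 libraries. TEAD1 made up 59.62% to 62.43% with DMSO and 51.85% to 54.32% with NTX301. For both shares the groups do not overlap, and the exact two-sided permutation p was 0.10 (adjusted over 4 shares 0.13), with 0.10 the smallest that 3 against 3 libraries allow. TEAD2 went from 8.77% ± 0.616 to 6.88% ± 0.426 (n = 3 each, exact permutation p = 0.10), and TEAD3 from 10.02% ± 0.541 to 9.29% ± 0.348, with overlapping groups (exact permutation p = 0.20). The log2 ratios of TEAD1, TEAD2 and TEAD3 to TEAD4 differed between the treatments by -0.83, -0.97 and -0.73 (NTX301 minus DMSO), each with an exact permutation p of 0.10. The summed TEAD level was 114.4 to 120.1 TPM with DMSO and 143.3 to 155.7 TPM with NTX301. In CPM, TEAD1 averaged 391.8 with DMSO and 365.6 with NTX301, a larger drop than the rise of TEAD4 from 23.16 to 38.25. The higher summed level with NTX301 thus depends on the scale.

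**Figure D2:**
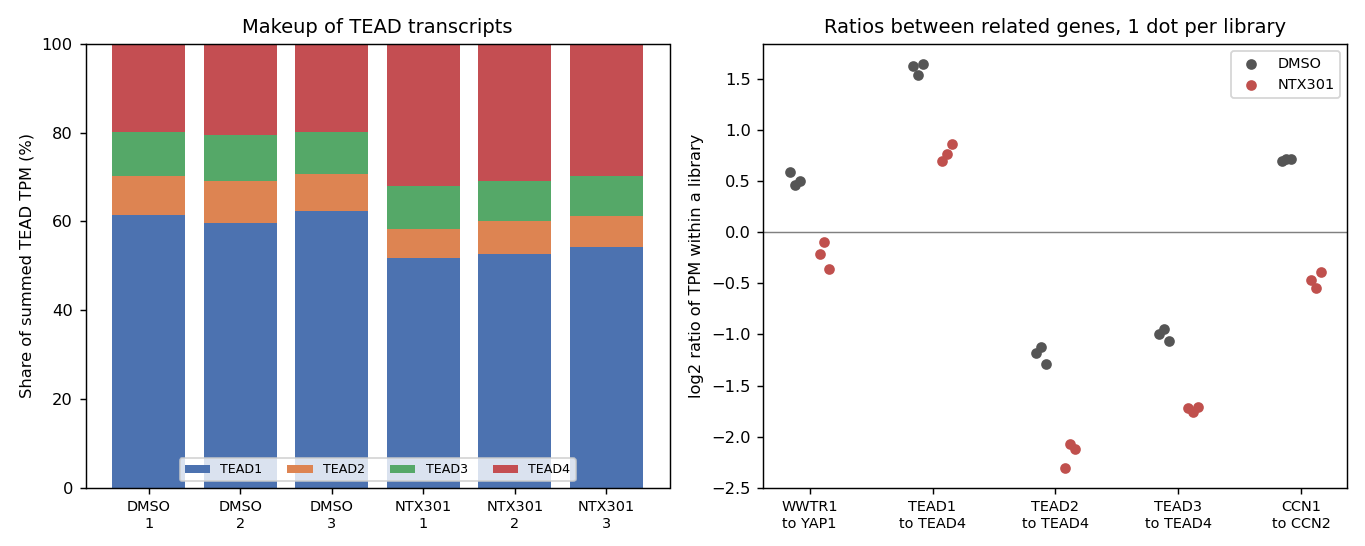
Left, share of each TEAD gene in the summed TEAD TPM (y axis, %) in each of the 6 libraries; right, log2 ratio of TPM between related genes, 1 dot per library. TEAD4 takes 19.84% to 20.40% with DMSO and 29.78% to 31.99% with NTX301, and the ratios of WWTR1 to YAP1 and of CCN1 to CCN2 are above 0 in every DMSO library and below 0 in every NTX301 library.

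CCN2 (ENSG00000118523.6, chromosome 6, 131948176 to 131951373 on the minus strand) encodes connective tissue growth factor, a secreted matricellular protein and a widely used readout of YAP and TAZ. Its levels were 133.4, 127.5 and 120.9 CPM with DMSO and 252.0, 256.0 and 238.2 CPM with NTX301. The groups are widely separated. The log2 fold change was 0.97 ± 0.05 (edgeR adjusted p = 4.4e-09), higher than that of 85.9% of all tested genes, and it ranged from 0.92 to 1.175 over the alternatives. AL133346.1 overlaps the start of CCN2 on the other strand and was not analysed here.

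CCN1 (ENSG00000142871.18, chromosome 1, 85580761 to 85583962 on the plus strand), the gene of the related protein CYR61 and a readout used in the same way, did not rise with it. It had 210.5, 204.4 and 193.4 CPM with DMSO and 177.9, 171.1 and 176.7 CPM with NTX301. All NTX301 libraries lay below all DMSO libraries on this scale, with a log2 fold change of -0.21 ± 0.04 (edgeR adjusted p = 0.00067). In TPM the groups overlap, at 151.0 ± 3.02 and 151.1 ± 6.28 (n = 3 each), and without a scaling factor the log2 fold change was -0.0041 (edgeR adjusted p = 0.93). The ratio of both genes changed under either view, from 1.62, 1.646 and 1.642 CCN1 transcripts per CCN2 transcript with DMSO to 0.7254, 0.6864 and 0.7619 with NTX301. In log2 this is 0.71 ± 0.01 against -0.47 ± 0.08 (n = 3 each, exact two-sided permutation p = 0.10, adjusted over 5 ratios 0.10). CCN1 and CCN2 have 1 transcript each in the deposited tables, so no change in transcript mix enters this ratio.

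LATS2 (ENSG00000150457.9, chromosome 13, 20973032 to 21061547 on the minus strand), a kinase that inactivates YAP and TAZ, had 92.54, 89.16 and 87.21 CPM with DMSO and 111.0, 105.8 and 110.9 CPM with NTX301. The groups do not overlap. Its log2 fold change was 0.29 ± 0.04 (edgeR adjusted p = 5.3e-05) and ranged from 0.25 to 0.49 over the alternatives. AMOTL2 (ENSG00000114019.15, chromosome 3, 134355874 to 134375479 on the minus strand), an angiomotin-like scaffold that binds YAP, had 138.6, 137.1 and 123.1 CPM with DMSO and 135.0, 125.7 and 131.6 CPM with NTX301. Its groups overlap on this scale, and its log2 fold change was -0.02 with a 95% interval of -0.13 to 0.09. In TPM its groups did not overlap (50.33 ± 2.36 against 57.39 ± 2.84, n = 3 each), and without a scaling factor its log2 fold change was 0.18 (edgeR adjusted p = 0.005). The 4 targets thus gave 2 rises, and a fall and an uncalled value that both depend on the scale.

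**Figure D3:**
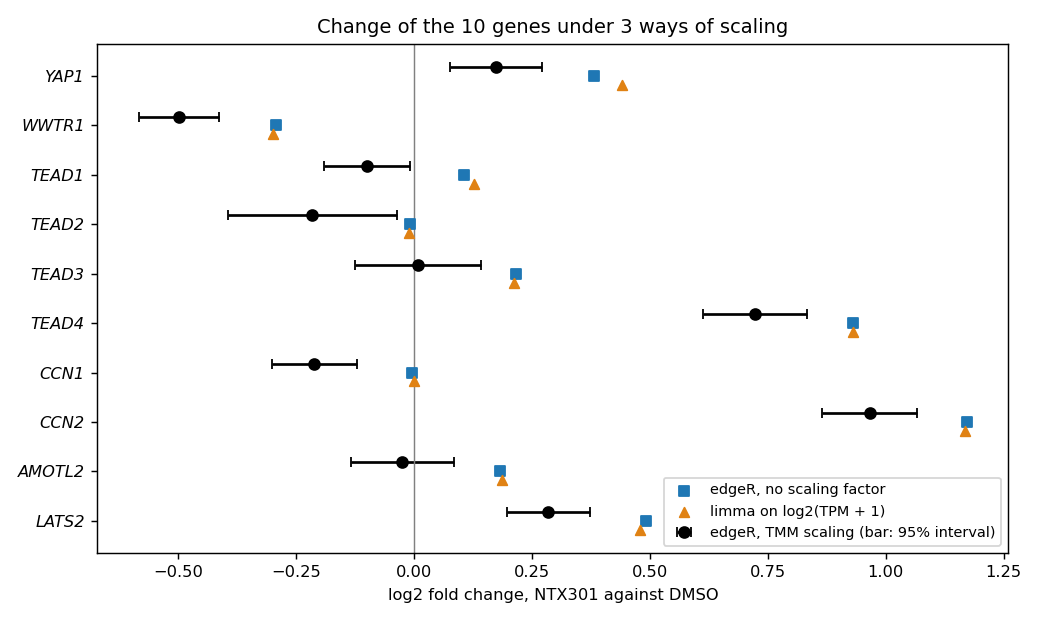
Log2 fold change, NTX301 against DMSO (x axis), of each gene under 3 ways of scaling; black points carry 95% intervals from the edgeR fit with TMM scaling. CCN2, TEAD4, LATS2 and YAP1 lie above 0 and WWTR1 below 0 in each, while TEAD1 and AMOTL2 change side.

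Per transcript length, the order of the 10 genes was the same in all 3 DMSO libraries: CCN1, WWTR1, CCN2, YAP1, TEAD1, AMOTL2, LATS2, TEAD4, TEAD3 and TEAD2, from the highest TPM to the lowest. In the DMSO group YAP1 (72.42 to 78.73 TPM) and its neighbour TEAD1 (70.21 to 74.96 TPM) overlap. In all 3 NTX301 libraries it was CCN2, CCN1, YAP1, WWTR1, TEAD1, AMOTL2, TEAD4, LATS2, TEAD3 and TEAD2. CCN2 moved to the top, YAP1 passed WWTR1 and TEAD4 passed LATS2. DMSO and NTX301 libraries stood fully apart in 7 of the 10 genes on the CPM scale, beside 73.7% of all tested genes, and on the TPM scale in 8 of 10, beside 72% of all tested genes.

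TEAD factors bind the sequence GGAATG, or CATTCC when read on the other strand, and both spellings were searched in RefSeq promoter windows of GRCh38.p14, which run from 250 bases before to 50 bases after an annotated start. Of the 10 genes, 7 matched that table by symbol, and TEAD1, TEAD4 and CCN1 did not. The motif stood in windows of 4 of these 7 genes (YAP1, CCN2, AMOTL2 and LATS2), and in windows of 16.7% of the 27305 genes in the table. CCN2 had 3 copies, at 169, 104 and 95 bases before the start, and 3 or more copies stood in windows of 0.165% of genes. The upstream part of its window, chr6:131951373-131951622 on the minus strand, is shown because CCN2 rose most and holds the most copies, with the motif in capitals.
CCN2: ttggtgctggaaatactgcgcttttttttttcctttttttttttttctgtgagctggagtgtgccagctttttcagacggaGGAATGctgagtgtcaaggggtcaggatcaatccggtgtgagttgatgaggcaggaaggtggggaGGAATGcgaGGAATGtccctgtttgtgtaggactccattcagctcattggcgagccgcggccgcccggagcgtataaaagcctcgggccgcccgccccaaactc

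The other 3 genes had 1 copy each, and 30 bases around it are shown for comparison. YAP1 has it 162 bases before the start (chr11:102110273-102110302, plus strand). AMOTL2 has it 69 bases before its second listed start, as CATTCC (chr3:134374499-134374528, minus strand), and none at its first. In LATS2 it lies at base 10 after the RefSeq start (chr13:21061560-21061589, minus strand), which is upstream of the start at 21061547 that GENCODE 29 gives.
YAP1: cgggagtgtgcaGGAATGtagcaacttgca
AMOTL2: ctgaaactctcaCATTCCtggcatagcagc
LATS2: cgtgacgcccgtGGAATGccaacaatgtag

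A match of these letters is a description and shows neither binding nor a cause, and no match says only that the letters are absent from this window. Neither of the 2 windows of WWTR1, nor of the 2 of TEAD2, nor the window of TEAD3 held it. Whether the motif goes with the change in level was not tested. NTX301 acts on methylation of cytosines before guanines, and the windows of these genes held from 1 such CpG in the first window of WWTR1 and of AMOTL2 to 40 in YAP1 and 44 in TEAD3, beside a median of 14 over all 35116 windows. The second windows of WWTR1 and of AMOTL2 held 18 and 37, CCN2 had 15 and LATS2 29. Methylation of these windows was not analysed here.

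**Figure D4:**
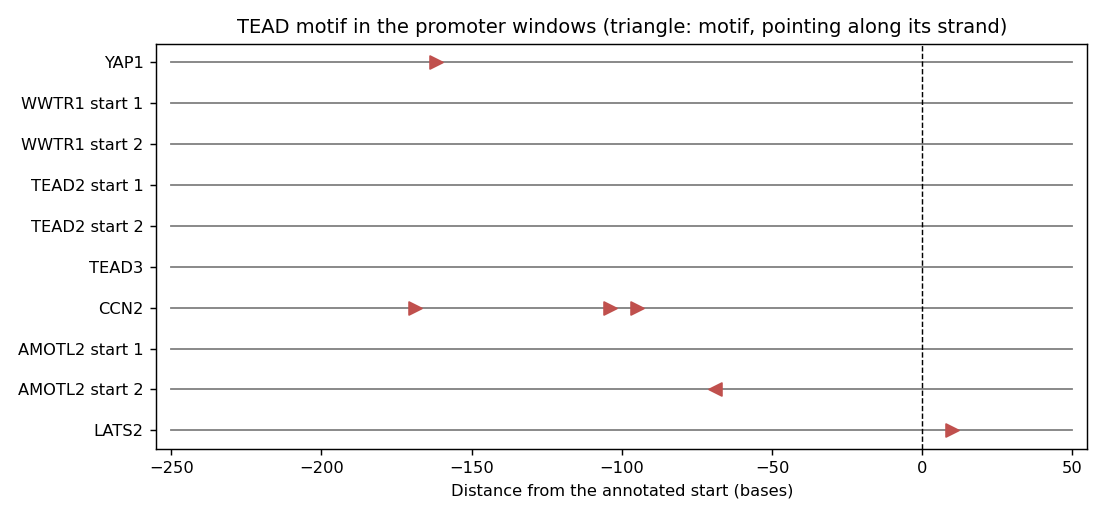
Positions of the TEAD motif (triangles, pointing along its strand) by distance from the annotated start (x axis, bases) in each promoter window of the 7 genes matched. CCN2 has 3 copies, and YAP1, AMOTL2 and LATS2 have 1 copy each.

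Upstream of YAP and TAZ, 9 of 21 tested genes of the Hippo kinases and their adaptors rose and 10 fell, with a median log2 fold change of -0.14 (0.07 without a scaling factor), beside the 35.4% and 35.1% of all tested genes. FRMD6, a FERM-domain protein that acts upstream of the kinases, went from 32.70 ± 1.69 to 104.2 ± 2.81 CPM (n = 3 each, log2 1.67 ± 0.05). RASSF1, a scaffold of the MST kinases and a tumour suppressor often methylated in cancer, rose by 0.84 ± 0.05 on the log2 scale. The MST1 kinase gene STK4 rose by 0.51 ± 0.05 and its partner SAV1 by 0.32 ± 0.04. WWC3 rose by 0.73 ± 0.16, and DCHS1, a large cadherin that averaged 0.769 CPM with DMSO and 1.315 CPM with NTX301, rose by 0.76 ± 0.27. The call of DCHS1 was absent in DESeq2 (adjusted p = 0.16), on log2(TPM + 1), and without any 1 of DMSO replicates 2 and 3 and NTX301 replicates 2 and 3 (edgeR adjusted p from 0.067 to 0.087).

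Other genes of the same arm fell. NF2, the gene of merlin, which brings LATS kinases to the membrane, went from 47.01 ± 1.72 to 29.43 ± 2.45 CPM (n = 3 each, log2 -0.68 ± 0.06). The protocadherin FAT4 fell by 0.83 ± 0.09 on the log2 scale, the phosphatase PTPN14, which binds YAP, by 0.79 ± 0.06, and the kinase TAOK1 by 0.73 ± 0.05. MOB1A, a cofactor of LATS kinases, fell by 0.30 ± 0.04 and TAOK3 by 0.29 ± 0.05, and both calls were lost on log2(TPM + 1) and without scaling (log2 -0.092 and -0.087 in the latter). Without a scaling factor 4 genes of this list fell in place of 10, and without DMSO replicate 2 there were 5 rises in place of 9. LATS1, the paralogue of LATS2, had a log2 fold change of -0.082 and was not called (edgeR adjusted p = 0.192).

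Among 13 tested opponents of the kinases, namely subunits of the STRIPAK phosphatase complex, LIM proteins and RASSF6, 5 rose and 7 fell (median log2 fold change -0.12, and 0.09 without a scaling factor), beside 35.4% and 35.1% of all tested genes. The STRIPAK subunit STRIP2 rose by 1.04 ± 0.08 on the log2 scale and AJUBA, a LIM protein that binds LATS kinases, by 0.73 ± 0.05. SIKE1 rose by 0.40 ± 0.05 and the catalytic subunit PPP2CA by 0.24 ± 0.04. RASSF6 fell by 1.06 ± 0.10, WTIP by 0.53 ± 0.08, the scaffold subunit PPP2R1A by 0.45 ± 0.04, STRN4 by 0.38 ± 0.04, LIMD1 by 0.33 ± 0.06 and STRN3 by 0.28 ± 0.05. Without a scaling factor the calls of LIMD1 and STRN3 were lost (log2 -0.126 and -0.074) and 4 genes fell in place of 7. On log2(TPM + 1) the call of WTIP was lost too (log2 -0.217, limma adjusted p = 0.068), and 3 genes fell.

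VGLL3, a vestigial-like protein that binds TEADs in place of YAP, had 3.87, 5.708 and 4.385 CPM with DMSO and 13.31, 11.29 and 12.79 CPM with NTX301, a log2 change of 1.42 ± 0.13 (edgeR adjusted p = 1.5e-06). It was the 1 gene called among 3 tested vestigial-like genes, beside 70.5% of all tested genes, and 2 of the 3 rose without a scaling factor. VGLL4, which represses TEAD targets, had a log2 fold change of -0.074 and VGLL1 of -0.52, neither past the threshold, and VGLL2 was too low to be tested.

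CCN1, CCN2, AMOTL2 and LATS2 belong to a published 22-gene signature of YAP and TAZ activity, and the other 18 genes of it also moved both ways. Of 17 tested, 9 rose and 7 fell (median log2 fold change 0.13, and 0.33 without a scaling factor), beside 35.4% and 35.1% of all tested genes. ANKRD1, a nuclear ankyrin-repeat protein, had 45.72, 45.58 and 44.71 CPM with DMSO and 119.1, 118.3 and 115.0 CPM with NTX301 (log2 1.37 ± 0.04, edgeR adjusted p = 1e-10). Its libraries hardly differ within a group. F3, which encodes tissue factor, went from 30.62 ± 0.748 to 62.11 ± 0.615 CPM (n = 3 each, log2 1.02 ± 0.04). FOXF2, a forkhead factor with 13 to 23 counts in a DMSO library, rose by 1.82 ± 0.23, the stress gene GADD45A by 0.99 ± 0.05, the dysferlin relative MYOF by 0.50 ± 0.04 and FJX1 by 0.40 ± 0.05.

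Against these, CRIM1, a transmembrane protein that binds BMPs, had 1267, 1260 and 1281 CPM with DMSO and 544.0, 532.9 and 546.0 CPM with NTX301. It fell by 1.23 ± 0.04 on the log2 scale (edgeR adjusted p = 1.5e-10). CCDC80, a secreted matrix protein, went from 225.8 ± 9.37 to 102.1 ± 1.85 CPM (n = 3 each, log2 -1.15 ± 0.04). DOCK5 fell by 0.88 ± 0.05, PTPN14, which stands in both lists, by 0.79 ± 0.06, ARHGEF17 by 0.51 ± 0.04 and the kinase NUAK2 by 0.50 ± 0.08. IGFBP3 had 0 counts in each DMSO library and 7, 10 and 8 in the NTX301 libraries, too few to be tested. In RefSeq promoter windows, 6 of 13 matched genes of this list held the TEAD motif, beside 16.7% of all genes in the table. It stood in windows of 4 of 18 matched kinases and adaptors and 2 of 10 opponents. Of the other TEAD partners 1 of 4 held it, and of the other CCN genes 1 of 1 matched.

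Of the other 4 CCN genes, CCN3, another matricellular protein gene, went from 2.339, 1.833 and 1.783 CPM with DMSO to 20.04, 19.51 and 18.04 CPM with NTX301. This is a log2 change of 3.27 ± 0.11 (edgeR adjusted p = 4.1e-10), with the groups far apart. CCN5, singled out with its values known, had 3, 6 and 12 counts with DMSO and 20, 19 and 23 with NTX301 (log2 1.38 ± 0.42, edgeR adjusted p = 0.012), and this call was lost in DESeq2 and without DMSO replicate 1 or 2. CCN4 and CCN6 had at most 8 counts in any library and were not tested.

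**Figure D5:**
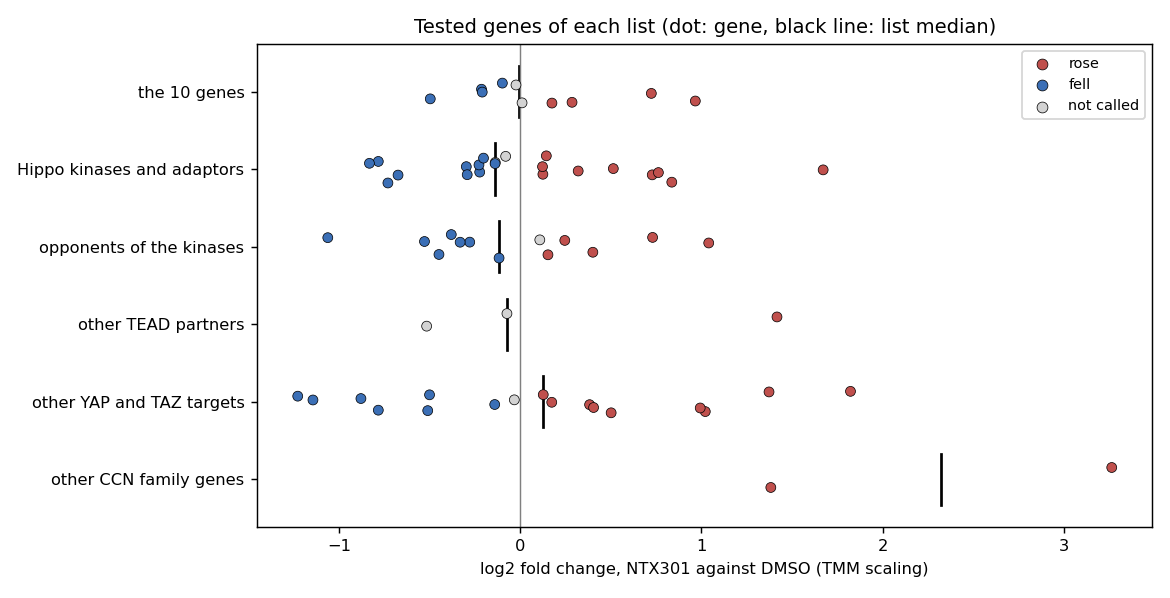
Log2 fold change, NTX301 against DMSO with TMM scaling (x axis), of each tested gene (dots) of the 10 genes and of 5 related lists. Colours give the edgeR call and black lines the list medians. The medians of the 10 genes, kinases, opponents and TEAD partners are below 0 here. Without a scaling factor every median shown is above 0, beside 0.21 for all tested genes. Rises and falls stand side by side in the 10 genes, in the kinases, in their opponents and in the other YAP and TAZ targets.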

How the data were processed

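RNA of OVCAR5 cells was measured in 3 DMSO and 3 NTX301 libraries, grouped and numbered by their titles. Each library has a table of genes in RSEM's column layout, per the file headers. Its deposited expected counts estimate the reads of each gene and are not normalized. The deposited TPM and FPKM values are scaled by the authors within each library, and the deposited gene lengths are means over transcripts weighted by abundance. Not given in the sources used here were tool versions, genome build, annotation release and strand setting. Where genes overlap on opposite strands, their reads may thus be mixed. The 47 pseudoautosomal Y entries (0.0224% of counts) were summed with the X entries. Of 62703 entries, 62656 genes resulted, and 62639 matched a symbol by stable identifier. Positions come from GENCODE 29 (GRCh38).

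Expected counts were rounded and tested with edgeR 4.0.16 (R 4.3.3) after filterByExpr and TMM scaling, with glmQLFit and glmQLFTest on all 6 libraries and treatment as the only term, with a threshold of 0.05 after Benjamini-Hochberg adjustment over 19029 genes. The script was tested on simulated data. Ratios and shares of TPM were compared by exact permutation over libraries. Alternatives were other scaling, no filter, DESeq2 1.42.0, limma 3.58.1 (voom, and log2 TPM with a pseudocount of 1 or 0.1), FPKM for ratios, a replicate block, and leaving out each library. In pairs of libraries, chi-square per degree of freedom was 2.373 to 6.567 within groups and 110.7 to 123.7 between groups, and all 6 libraries were kept as distinct. The members, lists and tests were chosen with earlier results of these data known. In each list, up to 6 rises and 6 falls with the largest change were named among called genes averaging at least 1 CPM, and for YAP1 and WWTR1 the 3 genes of most similar pattern. One gene that this rule names is not reported here. Counts limit precision at low levels.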

Additional observations from a re-analysis of the deposited data

How the results depend on the processing

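Of the 10 genes, CCN2, TEAD4, LATS2, YAP1 and WWTR1 kept their direction and call in all 14 alternative fits. Without a scaling factor, the log2 fold changes were 0.107 for TEAD1 and 0.182 for AMOTL2 (both other in sign), -0.0087 for TEAD2, 0.216 for TEAD3 and -0.0041 for CCN1; 7 of the 10 genes then rose and 1 fell, 4 Hippo kinases and adaptors and 4 opponents fell, and 2 other TEAD partners rose. On log2(TPM + 1) these values were 0.127, 0.186, -0.011, 0.212 and -0.00016, with 1 of the 10 genes, 4 kinases and adaptors and 3 opponents falling, 2 TEAD partners rising and 4318 of all genes falling. On log2(TPM + 0.1) they were 0.129, 0.189, -0.012, 0.226 and -0.00016, with the same counts of 1, 4, 3 and 2, and 4297 of all genes falling. With DESeq2 size factors in edgeR, TEAD1 was at -0.096 and not called; in DESeq2, TEAD2 was at -0.220 and not called and 1 other CCN gene rose; with no filter, TEAD3 was at -0.019. Without a scaling factor the median of all tested genes also moved, to 0.21; the cause of the lost calls was not tested. Leaving out 1 library each in turn, TEAD1 ranged from -0.133 to -0.084, TEAD2 from -0.270 to -0.171, TEAD3 from -0.038 to 0.045 and AMOTL2 from -0.09 to 0.0031; 2 to 4 of the 10 genes fell, 5 to 8 kinases and adaptors rose and 1 to 2 other CCN genes rose. The ratios and shares kept their direction without each library. FPKM differs from TPM by a single factor within a library. It thus gives the same ratios and shares apart from rounding, and cannot test them. The replicate block changed no call of the 10 genes (4 rose and 4 fell). Deviations of same-numbered libraries from their group means had correlations of 0.0805, -0.0277 and 0.0431, against -0.1 to 0.0553 for other pairs. With 3 libraries per group this cannot settle whether a number marks a shared culture or day, which the labels do not state.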
